A study of Mus musculus with 6 samples.

Results

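Frame-shifting cassette exons are exons that can be left out of an mRNA and whose length is not a multiple of 3, so that including or skipping them changes the reading frame behind them. They were taken from the skipped-exon section of a deposited splicing table by length alone, from 28 to 300 bases and not divisible by 3. The rule found 18612 events, 56.2% of the 33100 skipped-exon events and part of 45595 splicing events of all kinds, and they covered 16059 distinct exons in 7279 genes. An event is 1 exon with 1 pair of flanking exons, so an exon with several skipping junctions was listed several times. Of the 18612 events, 16122 (86.6%) in 6439 genes had a mean of 20 or more junction reads per library, and the values that follow are over these unless stated otherwise. The comparison group was the 12596 events whose exons have a length in the same range that is divisible by 3 (10937 with a mean of 20 or more reads), called frame-keeping exons.

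The study measured RNA from N2a cells (Neuro-2a, a mouse neuroblastoma line) in 6 RNA-seq libraries, 3 labelled as a knockout of hnRNP DL and 3 labelled wild type, to examine alternative splicing. hnRNP DL is an RNA-binding protein of the hnRNP D family. How the knockout was made, whether it was 1 clone and whether replicate libraries were grown as separate cultures is not stated in the labels, so p-values measure only how these libraries vary. The table holds 2 sets of 3 libraries and ties neither to a genotype; they are called set 1 and set 2, and each difference is set 1 minus set 2. Each library had between 13501749 and 18185394 junction reads summed over all events. In a principal component analysis of the inclusion levels of frame-shifting exons, library 3 of set 2 lay at 98.05 on the first component (23.49% of the variance), with the other 5 libraries between -32.61 and -12.03. Library 2 of set 2 lay at -92.13 on the second component (21.02%), with the other 5 between 8.01 and 29.33. These libraries are therefore also left out in turn below. Of 24 listed neuroblastoma markers, 12 had a mean total of 20 or more junction reads, with summed junction reads of 3634 to 5061 CPM, counts scaled to the library's junction reads, in set 1 and 5016 to 5324 CPM in set 2. Of these 12 genes, 3 had a lower junction total in set 1 by limma on log2(CPM + 1): Dbh (log2 ratio -2.37, adjusted p = 0.00347), which encodes dopamine beta-hydroxylase, Htr3a (-2.22, adjusted p = 0.00194), a serotonin receptor gene, and Chgb (-1.01, adjusted p = 0.0132), of secretory granules. Their part in the splicing results was not tested. Of 35 listed markers of other cell types, 5 had an event in the table and 0 a mean total of 20 or more reads.

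Exon skipping is decided when the spliceosome pairs the splice sites of an exon with those of its neighbours, helped or hindered by SR proteins and hnRNPs that bind the exon and the introns around it. When the exon does not hold a whole number of codons, one of the alternative forms usually runs into a stop codon ahead of the last exon junction, and such mRNAs are degraded by nonsense-mediated decay. An exon whose inclusion brings in the stop is known as a poison exon, and many genes of RNA-binding proteins carry one.

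The sequences that follow are exons of GENCODE vM21 transcripts (GRCm38, the assembly of build mm10), written 5′ to 3′ on the transcript strand. They were chosen for the smallest p-values, for the largest called changes in coding exons that are removed alone, and to show stops brought in by inserted exons. In the exons of Hpf1, U2af1, Plekhj1, Rps27a, Tarbp1 and Mettl26, capitals mark bases of a codon that is split between this exon and a neighbour. Each skipping form begins with the last 24 bases of the upstream exon and ends at the first in-frame stop, in capitals.
Hpf1, exon of 160 bases, chr8:60893701-60893860, plus strand: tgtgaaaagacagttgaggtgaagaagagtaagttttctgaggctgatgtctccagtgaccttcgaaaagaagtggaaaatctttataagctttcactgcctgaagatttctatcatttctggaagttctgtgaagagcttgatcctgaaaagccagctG
Hpf1, exon of 190 bases, chr8:60895461-60895650, plus strand: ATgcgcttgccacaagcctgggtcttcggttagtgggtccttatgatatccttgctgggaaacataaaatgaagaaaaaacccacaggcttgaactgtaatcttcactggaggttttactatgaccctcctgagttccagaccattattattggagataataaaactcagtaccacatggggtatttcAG
Hpf1, skipping form without both exons: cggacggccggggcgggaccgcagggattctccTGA
U2af1, exon of 88 bases, chr17:31654979-31655066, minus strand: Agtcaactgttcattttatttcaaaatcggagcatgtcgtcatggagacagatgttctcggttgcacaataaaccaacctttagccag
U2af1, exon of 67 bases, chr17:31651646-31651712, minus strand: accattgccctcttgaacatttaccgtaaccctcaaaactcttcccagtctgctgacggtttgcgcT
U2af1, skipping form without both exons: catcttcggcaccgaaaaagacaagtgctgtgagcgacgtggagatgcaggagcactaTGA
Plekhj1, exon of 68 bases, chr10:80797910-80797977, minus strand: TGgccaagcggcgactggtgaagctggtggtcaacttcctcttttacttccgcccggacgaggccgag
Plekhj1, exon of 67 bases, chr10:80797773-80797839, minus strand: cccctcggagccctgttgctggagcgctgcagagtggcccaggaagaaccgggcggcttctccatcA
Rps27a, exon of 55 bases, chr11:29547206-29547260, minus strand: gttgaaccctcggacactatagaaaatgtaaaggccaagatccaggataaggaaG
Rps27a, skipping form: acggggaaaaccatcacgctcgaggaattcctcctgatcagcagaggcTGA
Tarbp1, exon of 70 bases, chr8:126470019-126470088, minus strand: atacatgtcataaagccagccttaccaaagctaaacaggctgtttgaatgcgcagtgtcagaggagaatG
Tarbp1, skipping form: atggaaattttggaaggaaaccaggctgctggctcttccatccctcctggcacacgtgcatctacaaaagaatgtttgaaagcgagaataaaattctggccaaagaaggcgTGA
Mettl26, exon of 163 bases, chr17:25875960-25876122, plus strand: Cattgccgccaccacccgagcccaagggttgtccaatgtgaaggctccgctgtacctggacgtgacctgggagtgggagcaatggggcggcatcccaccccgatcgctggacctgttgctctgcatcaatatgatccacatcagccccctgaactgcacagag
Mettl26, skipping form: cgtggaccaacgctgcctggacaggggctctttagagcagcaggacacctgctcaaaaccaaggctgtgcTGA
Read from the annotated start codon, the skipping form of Hpf1 stopped after 19 codons, against 346 codons in the full form, and that of U2af1 after 26, against 239. The form of Rps27a without its 55-base exon stopped after 24 codons, against 156, that of Tarbp1 after 332, against 1579, and that of Mettl26 after 81, against 204. The pair of Plekhj1 exons has 135 bases together, a multiple of 3, so a form without both keeps the frame, with 119 codons against 164.

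In the next 4 exons, which lie between coding exons and outside the annotated coding forms, capitals mark the in-frame stop that inclusion brings in.
Cenpa, inserted exon of 137 bases, chr5:30669692-30669828, plus strand: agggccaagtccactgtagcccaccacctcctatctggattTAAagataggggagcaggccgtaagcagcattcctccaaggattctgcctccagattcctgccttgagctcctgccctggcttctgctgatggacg
Ccnl1, inserted exon of 73 bases, chr3:65955204-65955276, minus strand: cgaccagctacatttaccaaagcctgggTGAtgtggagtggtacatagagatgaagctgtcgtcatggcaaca
Prpf38b, inserted exon of 71 bases, chr3:108905918-108905988, minus strand: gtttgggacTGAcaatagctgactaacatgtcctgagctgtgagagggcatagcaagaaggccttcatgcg
Rabggtb, inserted exon of 98 bases, chr3:153910064-153910161, minus strand: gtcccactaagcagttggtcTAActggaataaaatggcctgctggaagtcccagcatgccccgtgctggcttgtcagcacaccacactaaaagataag
With these exons the open reading frame ended after 42 codons in Cenpa, against 134 without the exon, after 178 in Ccnl1, against 532, after 190 in Prpf38b, against 542, and after 145 in Rabggtb, against 331.

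Most frame-shifting exons were included almost always. The inclusion level, the share of the inclusion form among both forms after scaling for their lengths, had a median of 0.993 over the 16122 events, and 78.7% of events had a mean level of 0.95 or more. A mean level from 0.1 to 0.9, called intermediate here, was found for 9.03% of frame-shifting events and for 14.1% of frame-keeping events. The exons had a median length of 115 bases (quartiles 83 and 152), against 111 bases (78 and 147) for frame-keeping exons. Intermediate levels made up 9.44% of events whose length leaves a remainder of 1 base and 8.61% of those that leave 2 bases, a difference that was not tested.

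Length separated the kinds of exon most at the short end. Among exons of 28 to 60 bases, 12.3% of frame-shifting events were intermediate, against 24.7% of frame-keeping events. The shares were 9.14% and 14.6% from 61 to 100 bases, 7.46% and 11.6% from 101 to 150 bases, 9.41% and 10.5% from 151 to 200 bases, and 10.8% and 12.9% from 201 to 300 bases. The gap between them was thus widest for the shortest exons. Just inside the lower length limit, 210 events of 28 to 35 bases had a median level of 0.988 with 16.2% intermediate, and just outside it, 72 frame-shifting events of 19 to 26 bases had a median of 0.988 with 13.9%. At the upper limit, 31 events of 290 to 299 bases had a median of 0.997 with 16.1% intermediate. Just above it, 37 events of 301 to 310 bases had a median of 0.995 with 8.11%, a difference between small groups that was not tested.

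The lower share of intermediate levels in frame-shifting exons held in each of the 6 libraries. Counted within a library, the share was 9.65%, 9.35% and 9.52% in set 1 and 9.76%, 10.1% and 10.6% in set 2 for frame-shifting events. For frame-keeping events it was 14.1%, 14.2% and 14.4% in set 1 and 14.3%, 14.8% and 15.1% in set 2. The difference, frame-shifting minus frame-keeping, averaged -4.62 ± 0.16 percentage points (SD, n = 6 libraries), with libraries from -4.83 to -4.48 (exact sign-flip permutation test over libraries, two-sided, p = 0.03125, the smallest that 6 libraries allow; adjusted p = 0.0375 over 6 such comparisons). The libraries hold the same exons, so the test speaks of the spread between libraries and not between exons. The median level differed by 0.0018 ± 0.0015 (SD, n = 6), which did not pass the same test (exact permutation p = 0.125).

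**Figure D1:**
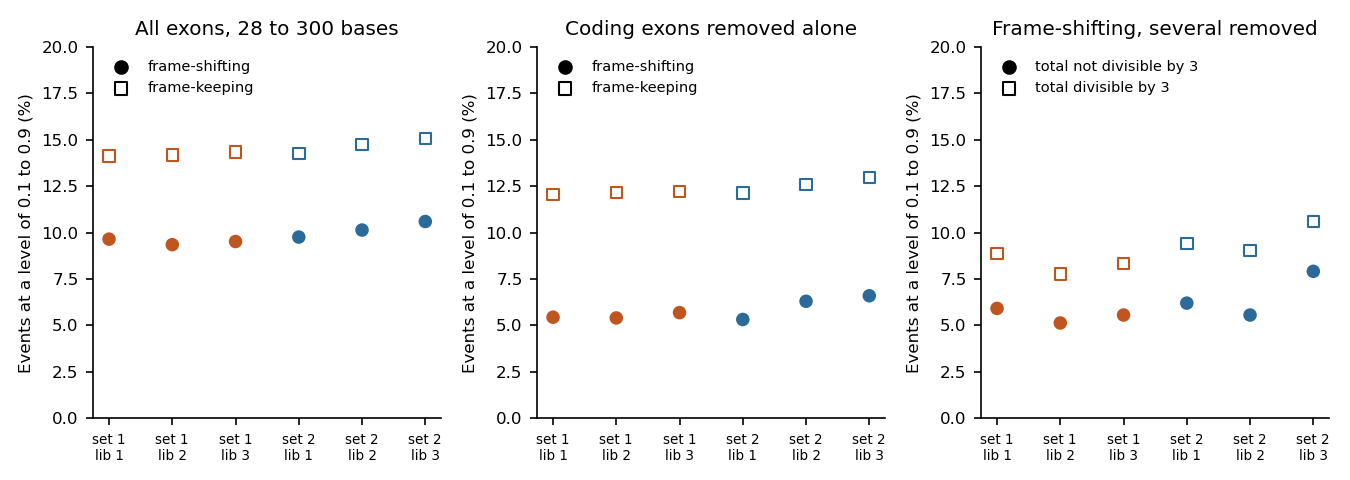
Share of events with an inclusion level from 0.1 to 0.9 (percent, vertical axis) in each library, with set 1 in orange and set 2 in blue. Filled circles are frame-shifting exons and open squares frame-keeping exons in the left and middle plots; in the right plot, of frame-shifting exons whose skipping junction removes several exons, circles are totals not divisible by 3 and squares totals divisible by 3. The circle lies below the square in every library of every plot.

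The place of an exon in its gene went with its level. Among the 9787 coding exons that their skipping junction removes alone, the median level was 0.995, 5.01% of events were intermediate and 18.8% had the skipping junction in an annotated transcript. Exons in the 5′ UTR had a median of 0.622 over 838 events, and 37.4% were intermediate. Exons holding the start or end of the coding sequence lay between, with a median of 0.985 and 16.5% intermediate over 954 events. The 857 exons inserted between coding exons were mostly skipped, with a median level of 0.0172, and 17.7% were intermediate. Exons of noncoding genes (133 events) had a median of 0.949, with 32.3% intermediate.

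**Figure D2:**
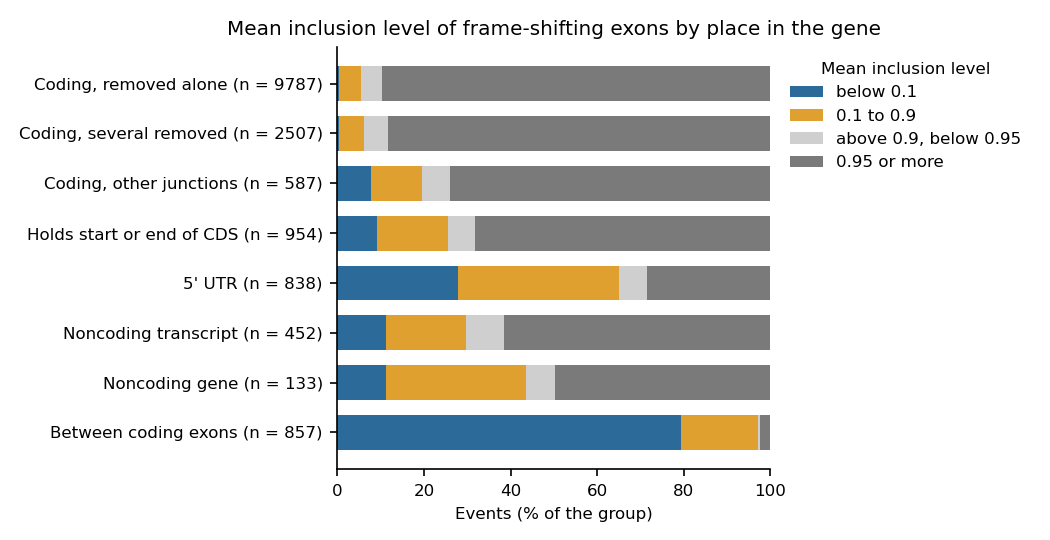
Frame-shifting events with a mean of 20 or more reads, split by mean inclusion level (stacked bars, percent of the group on the horizontal axis) for 8 kinds of place in the gene (rows; the 7 exons of the 3′ UTR are left out). Levels of 0.95 or more fill most of the bars of coding exons, levels below 0.1 most of the bar of exons between coding exons, and intermediate levels are widest for 5′ UTR exons.

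For coding exons removed alone, skipping was read through the annotated frame. A stop more than 50 bases ahead of the last exon junction, called premature here, was met in 8101 of 9771 modelled events (82.9%), against 49 of 7319 frame-keeping events (0.669%). Within this group 5.45%, 5.41% and 5.69% of frame-shifting events were intermediate in the libraries of set 1 and 5.32%, 6.3% and 6.6% in those of set 2, against 12.1% to 13.0% of frame-keeping events. The difference averaged -6.56 ± 0.20 percentage points (SD, n = 6; exact sign-flip permutation p = 0.03125, adjusted p = 0.0375). Frame-shifting coding exons whose loss meets a premature stop were intermediate in 4.62% to 5.97% of events over the libraries, against 8.41% to 9.75% of the 1652 whose loss does not. The difference was -4.09 ± 0.43 percentage points (SD, n = 6; exact sign-flip permutation p = 0.03125, adjusted p = 0.0375). The comparisons within coding exons were added after the data were seen.

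Skipping junctions that removed several coding exons at once allowed the frame to be kept by exons that each shift it. There were 2507 such events, 1943 of them with 2 exons removed and 370 with 3. The removed exons added up to a multiple of 3 in 1105 (44.1%), and to another number in 1402. Intermediate levels were found in 5.14% to 7.92% of events with a total not divisible by 3, against 7.78% to 10.6% of those with a total divisible by 3, over the 6 libraries. The difference was -2.95 ± 0.33 percentage points (SD, n = 6; exact sign-flip permutation p = 0.03125, adjusted p = 0.0375). For frame-keeping exons the same split, by mean level, gave 4.29% of 699 events with a total not divisible by 3 against 12.2% of 771 with a total divisible by 3.

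Inserted exons brought a premature stop in 830 of 857 events (96.8%), and in 652 of these the stop lay inside the exon. Frame-keeping inserted exons brought one in 356 of 406 modelled events (87.7%), in all 356 inside the exon. A high share was thus found for both kinds of inserted exon. Of the 857, 518 were in transcripts annotated as targets of nonsense-mediated decay. Cenpa encodes the histone H3 variant of centromeres, and its 137-base exon, shown above, stood at 0.379, 0.404 and 0.403 in set 1 and at 0.42, 0.362 and 0.339 in set 2. The exon of Ccnl1, which encodes cyclin L1, a cyclin of splicing regulation, stood at 0.497, 0.61 and 0.461 in set 1 and at 0.534, 0.429 and 0.477 in set 2. In both genes the sets overlapped, and a large share of junction reads was on the stop-bearing form in every library. The exon of Prpf38b, which encodes a splicing factor, had mean levels of 0.162 ± 0.026 in set 1 and 0.176 ± 0.036 in set 2 (SD, n = 3 each). That of Cnot2, a subunit gene of the CCR4-NOT deadenylase, had 0.111 ± 0.016 and 0.0931 ± 0.0177, and that of Pan3, of the PAN2-PAN3 deadenylase, 0.103 ± 0.052 and 0.143 ± 0.070 (SD, n = 3 each).

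The inserted exons of intermediate level with the most reads, chosen after their values were seen, were those of Dhx9, Acp1, Cenpa, Brd2, Yaf2 and Rabggtb. Dhx9 encodes an RNA helicase, and its 139-base exon averaged 0.11 in set 1 and 0.102 in set 2. The 62-base exon of Acp1, a phosphatase gene, averaged 0.44 and 0.418 in sets 1 and 2, and the 92-base exon of Brd2, which encodes a bromodomain protein, 0.155 and 0.136. The exon of Yaf2, a gene of a Polycomb-associated protein, averaged 0.229 and 0.211. That of Rabggtb, a subunit of the enzyme that prenylates Rab proteins, stood at 0.238, 0.265 and 0.275 in set 1 and at 0.213, 0.24 and 0.23 in set 2. The quasi-binomial test described below gave an adjusted p of 0.735 or more for each of these 6 exons. Averaged over all 857 inserted exons, the level was 0.1009, 0.1011 and 0.101 in the libraries of set 1 and 0.104, 0.0982 and 0.0937 in those of set 2 (exact permutation test, two-sided, p = 0.6).

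**Figure D3:**
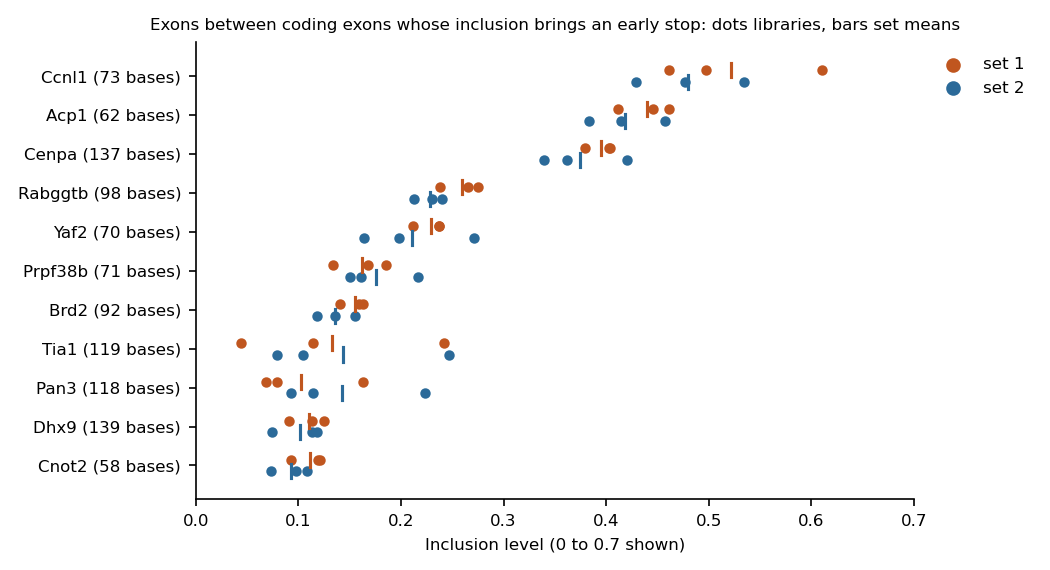
Inclusion level (horizontal axis, 0 to 0.7) of 11 exons that lie between coding exons and whose inclusion meets a premature stop. Dots are libraries and bars the means of set 1 (orange, upper row of each gene) and set 2 (blue, lower row). The sets overlap for every gene drawn. The inserted exon of 9930021J03Rik, whose inclusion also meets a premature stop, is left out here. Its sets do not overlap, at 0.39, 0.503 and 0.46 in set 1 and 0.305, 0.199 and 0.284 in set 2. That exon is drawn in the plot of the largest called differences. The genes drawn here are ordered by their mean level over both sets. They run from Ccnl1 (0.522 in set 1, 0.48 in set 2) to Cnot2 (0.111 in set 1, 0.0931 in set 2).

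Between the sets, the inclusion levels of frame-shifting exons moved little as a group. The median level per library was 1.0 in all 3 libraries of set 1 and 0.998, 1.0 and 0.998 in set 2 (exact permutation test, two-sided, p = 0.4). The share of junction reads on skipping forms was 6.37%, 6.68% and 6.7% in set 1 and 6.21%, 6.77% and 6.85% in set 2 (exact permutation p = 0.9). The share of intermediate events, given above, lay lower in every library of set 1 than in set 2, a difference of -0.66 percentage points with means of 9.51% and 10.2% (exact permutation p = 0.1, the smallest that 3 libraries against 3 allow; adjusted p = 0.267 over 8 such comparisons). Without library 3 of set 2 it was -0.44 and without library 2 of set 2 -0.67 percentage points.

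Rare skipping of exons that are nearly always included was spread more widely in set 2. In set 1, 53.0%, 55.1% and 56.0% of frame-shifting events had no skipping read at all, and in set 2, 47.9%, 50.9% and 49.1%. Among the 12693 events with a mean level of 0.95 or more, skipping reads came to 2.2, 2.25 and 2.2 per 1000 junction reads in set 1 and 2.38, 2.55 and 3.0 per 1000 in set 2. Set 1 therefore lay wholly on one side of set 2 in both measures, which were chosen after the data were seen (exact permutation p = 0.1 for each, the smallest possible; adjusted p = 0.267). Without library 3 of set 2, the mean of set 2 was 2.47 per 1000, against 2.22 in set 1. Frame-keeping exons showed the same order, at 2.01 to 2.03 per 1000 in set 1 and 2.15 to 2.64 per 1000 in set 2, so the order of the sets was shared by both kinds of exon. Library 1 of set 2 was the deepest of the 6 and library 3 of set 2 the shallowest, and the part of depth or RNA quality in this was not tested.

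**Figure D4:**
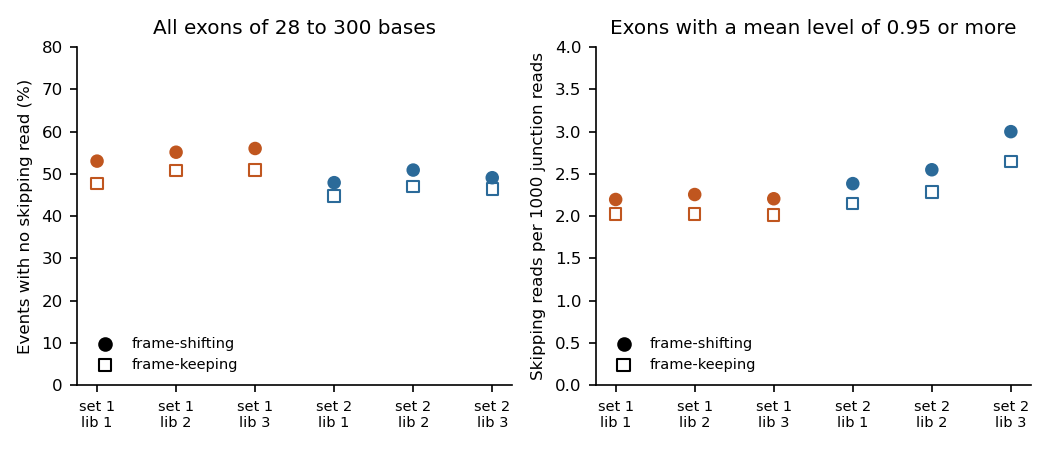
Left, share of events without a skipping read (percent); right, skipping reads per 1000 junction reads over exons with a mean level of 0.95 or more, each by library, with set 1 in orange and set 2 in blue, circles for frame-shifting and squares for frame-keeping exons. The 3 libraries of set 1 lie above those of set 2 on the left and below them on the right.

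The next question was which frame-shifting exons differed in inclusion. Of 18612 events in the authors' deposited table, 113 (0.607%) were called, with an adjusted p below 0.05 together with a change of at least 0.10, 72 higher and 41 lower in set 1, in 104 genes; over all 45595 events of the table the share was 0.645%. With a mean of 20 or more reads there were 69 called events in 63 genes, 43 higher and 26 lower in set 1, which is 0.428% of such events against 0.434% of all 39419 events with that many reads. Both shares lie next to the background. Set 1 and set 2 had no overlap in 36 of the events called higher and 14 of those called lower in set 1, and overlapped in the other 19. Sets without overlap were found for 4.63% of the frame-shifting events and for 5.93% of all events with a mean of 20 or more reads, called or not. A moderated quasi-binomial test, which estimates the spread between libraries from the inclusion and skipping reads and adjusts over all 39419 events, called 0 of them (0%), and so 0 frame-shifting events, with 437 (2.71%) at an unadjusted p under 0.05 and 59 of these among the 69. This form of the test was settled after another had been seen. The same test with a dispersion prior from events with 5 or more reads of the rarer form was run first and called 6 frame-shifting events. Among them were exons of Hpf1 (160 bases, adjusted p = 0.000107), U2af1 (88 bases, 0.000428) and Plekhj1 (68 bases, 6.2e-05). The others were the 190-base exon of Hpf1 (0.000448) and the 67-base exon of Plekhj1 (0.000442), each under the same junction as its partner. A 157-base exon of Fbxw11 was the last, at 0.533 in set 1 and 0.176 in set 2 (adjusted p = 0.027, and 0.735 in the main form). With limma on logit-transformed levels there were 0 calls and 388 events with an unadjusted p below 0.05. The calls below are therefore those of the authors' deposited table.

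The called events were less concentrated in exons removed alone than the frame-shifting exons at large. Of the 69, 22 (31.9%) were coding exons removed alone, which make up 60.7% of all 16122. Skipping junctions across several coding exons gave 17 (24.6%, against 15.6%), 5′ UTR exons 10 (14.5%, against 5.2%) and exons with the start or end of the coding sequence 7 (10.1%, against 5.92%). The 17 events across several coding exons came from 13 genes. Of 53 called frame-keeping events, 23 were coding exons removed alone, which make up 67.0% of all 10937. Another 10 lay under junctions across several coding exons (13.4% of all) and 7 in the 5′ UTR (3.92% of all). The order was thus shared by both kinds of exon. A call needs a change of 0.10 or more, so all 16122 events, most of them nearly always included, are an unlike background. Of the 1456 frame-shifting events at an intermediate level, 490 were coding exons removed alone and 313 were 5′ UTR exons. Another 147 lay under junctions across several coding exons, and 157 held the start or end of the coding sequence. These shares are a description and were not tested. Of the 10 called 5′ UTR exons, 9 were higher in set 1. A premature stop was met in 18 of the 22 forms without a coding exon removed alone and in 12 of the 17 forms without several.

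Exons with a called several-exon junction were also read against their direct neighbours. Of the 17 events, 11 had another event for the same exon with its neighbours as flanks, and 0 of these 11 was called. Inclusion reads of a several-exon event are those that join the exon to the flanks of that event. Reads that join the removed exons to one another are left out, so its level is not the share over all reads of the exon. The median absolute difference was 0.133 in the called events and 0.011 in their counterparts, whose largest was 0.0751 and of which 5 had the opposite sign. Over all 16122 frame-shifting events it was 0.00639. A call needs a minimum change, which the counterparts did not have to meet, so smaller differences in them follow from the selection. The counterparts also leave out the reads of the long junction. The contrast therefore cannot show whether the use of these exons differed between the sets. The skipping reads of each called event were those of 1 long junction, and exons under the same junction share those reads. Of the 18612 events, 2767 share their skipping junction with another. The genes Acin1, Crlf2, Dpp7, Hpf1, Metap1d and Plekhj1 had 2 called events each, in every case from 1 shared junction.

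Hpf1 encodes a cofactor of PARP1 that directs ADP-ribosylation to serine, and its 160- and 190-base exons are shown above; among frame-shifting exons with a mean of 20 or more reads the 160-base exon had the smallest p, both in the quasi-binomial test and in the authors' deposited table. The junction that skips both was seen 37, 44 and 30 times in set 1, against 8, 0 and 10 times in set 2. In the event with this junction the 160-base exon had 416, 517 and 508 inclusion reads in set 1 and 526, 527 and 480 in set 2. With its direct neighbours as flanks it had 839, 868 and 952 in set 1 and 975, 919 and 828 in set 2. The levels with this junction therefore leave out many inclusion reads. They were 0.849, 0.855 and 0.894 in set 1 and 0.97, 1.0 and 0.96 in set 2 for the 160-base exon. For the 190-base exon they were 0.834 ± 0.033 in set 1 and 0.967 ± 0.032 in set 2 (SD, n = 3 each). No library of set 1 reached the lowest of set 2 for either exon. For the 160-base exon the adjusted p was 3.67e-12 in the authors' deposited table and 0.14 by the quasi-binomial test. Against direct neighbours, the level of the 190-base exon was 0.879 in set 1, against 0.857 in set 2, with 44, 75 and 52 skipping reads in set 1 and 77, 77 and 53 in set 2, so its removal alone lay the other way, with overlapping libraries. The 160-base exon was removed alone in at most 4 reads of any library.

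U2af1 encodes the small subunit of U2AF, which reads the AG at the 3′ splice site. The junction without its 88-base and 67-base exons was seen 0, 3 and 8 times in set 1, against 42, 17 and 24 times in set 2. The level of the 88-base exon was 1.0, 0.986 and 0.958 in set 1 and 0.822, 0.91 and 0.877 in set 2, with no overlap. The adjusted p was 2.2e-11 in the authors' deposited table and 0.194 in the quasi-binomial test. Against its neighbours that exon had a level of 0.998 in set 1, against 0.987 in set 2. Another 67-base exon of the gene (chr17:31652502-31652568), known as its alternative partner, had fewer inclusion reads, 351, 348 and 392 in set 1 and 457, 379 and 342 in set 2, than the 67-base exon shown above, with 1527, 1539 and 1358 in set 1 and 1556, 1132 and 1227 in set 2. The skipped-exon events set both only against junctions without either, so their inclusion levels there do not give the choice between them. The junction total of U2af1 had a log2 ratio of 0.17 ± 0.10 (SE, set 1 over set 2, on the log2(CPM + 1) scale; limma adjusted p = 0.667).

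In Plekhj1, a gene of a pleckstrin homology domain protein, reads that skip the exon pair came from 2 libraries of set 1. The junction without its 68- and 67-base exons was seen 21, 29 and 0 times in set 1, and not in any library of set 2. The level of the 68-base exon was 0.838, 0.781 and 1.0 in set 1 and 1.0 in each library of set 2, where 0 of 529 reads allow a share of up to 0.567% for counting error only. Library 3 of set 1 thus equalled set 2, and the difference of -0.127 was -0.081 without library 2 of set 1. The adjusted p was 9.96e-10 in the authors' deposited table and 0.194 in the quasi-binomial test; without library 3 of set 1 the quasi-binomial test gave an adjusted p of 0.0161 and a difference of -0.19. The same 68-base exon skipped alone, which meets a premature stop, stood at 0.776 in set 1 and 0.852 in set 2.

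Rps27a and Morf4l2 had small p with small changes. Rps27a encodes a fusion of ubiquitin and a small-subunit ribosomal protein, and skipping of its 55-base exon was seen in 1, 6 and 6 reads of set 1, against 35, 19 and 40 of set 2, beside 13276, 13162 and 12750 inclusion reads in set 1 and 16126, 14625 and 14874 in set 2. Its level was 1.0, 0.999 and 0.999 in set 1 and 0.997, 0.998 and 0.996 in set 2 (quasi-binomial adjusted p = 0.194; the authors' deposited table gave 1.0). Ribosomal protein genes have many processed copies, and how reads were assigned among copies is not stated in the labels or file headers. The 77-base 5′ UTR exon of Morf4l2, which encodes a chromatin-associated protein, stood at 0.979, 0.979 and 0.963 in set 1 and at 0.946, 0.962 and 0.929 in set 2 (adjusted p = 1.26e-06 in the authors' deposited table, 0.62 in the quasi-binomial test).

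Among coding exons called higher in set 1, the largest differences came with few reads. Metap1d encodes a mitochondrial methionine aminopeptidase; its 98-base exon stood at 1.0, 0.901 and 0.568 in set 1 and at 0.492, 0.459 and 0.272 in set 2 against the junction that removes it with a 164-base exon; coverage averaged 20.3 reads per library. Against its own neighbours its level was 0.651 in set 1, against 0.669 in set 2. The 164-base exon under the same junction was called as well, at a mean of 0.883 in set 1 and 0.506 in set 2. Crlf2, which encodes the receptor for the cytokine TSLP, had a 154-base exon at 0.846, 1.0 and 0.778 in set 1 and at 0.542, 0.551 and 0.31 in set 2. Ccl25, a chemokine gene, had a 137-base exon at 0.879 ± 0.107 in set 1 and 0.546 ± 0.157 in set 2 (SD, n = 3 each), where the junction removes 3 exons. Ube3b, a ubiquitin ligase gene, had no skipping read across its 83-base exon in set 1 (0 of 70 reads; a share of up to 4.29% is allowed, for counting error only) and a level of 0.812 ± 0.101 in set 2.

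Tarbp1, which encodes an RNA 2′-O-methyltransferase, carried the largest such difference of a coding exon removed alone. Its 70-base exon had 10, 7 and 13 skipping reads in set 1 and 24, 23 and 22 in set 2, with 77, 59 and 65 inclusion reads in set 1 and 51, 31 and 48 in set 2. The level was 0.84, 0.852 and 0.774 in set 1 and 0.592, 0.479 and 0.599 in set 2, so the lowest library of set 1 lay well above the highest of set 2. The adjusted p was 0.000538 in the authors' deposited table and 0.735 in the quasi-binomial test, whose unadjusted p was 0.000862. The inserted 128-base exon of 9930021J03Rik, whose inclusion meets a premature stop, stood at 0.39, 0.503 and 0.46 in set 1 and at 0.305, 0.199 and 0.284 in set 2.

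With 1 exon counted per gene, exons of the 5′ UTR made up 6 of the 12 largest called differences with a higher level in set 1 and no overlap of the sets. Tnip1 encodes an inhibitor of NF-kappa-B signalling that binds TNFAIP3; its 158-base exon stood at 0.895, 0.739 and 1.0 in set 1 and at 0.405, 0.409 and 0.704 in set 2. Pgap2, a gene of GPI anchor remodelling, had a 112-base exon at 1.0, 1.0 and 0.932 in set 1 and at 0.775, 0.709 and 0.685 in set 2. Sgms1, which encodes a sphingomyelin synthase, had a 122-base exon at 0.317, 0.26 and 0.333 in set 1 and at 0.101, 0.192 and 0.138 in set 2. The 49-base exon of Ift46, a gene of ciliary transport, stood at 0.261, 0.181 and 0.329 in set 1 and at 0.146, 0.0678 and 0.091 in set 2. Qrich1 lay at 0.327 in set 1 and 0.171 in set 2, and 2810474O19Rik at 0.644 in set 1 and 0.301 in set 2. The quasi-binomial test gave an adjusted p of 0.735 for each of these 6. Coverage averaged 23.2 reads per library for Tnip1, 26.2 for Pgap2 and 27.2 for 2810474O19Rik, near the minimum of 20. It was 62.5 for Sgms1, 78 for Qrich1 and 96.2 for Ift46. The largest of these differences thus also came with few reads.

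Of exons called lower in set 1, Mettl26 and Gmip lay among coding exons removed alone whose loss meets a premature stop. Mettl26, a gene of a methyltransferase-like protein, had a 163-base exon with 33, 23 and 26 skipping reads in set 1 and 15, 21 and 12 in set 2. Its level was 0.621, 0.659 and 0.606 in set 1 and 0.858, 0.781 and 0.782 in set 2, without overlap (adjusted p = 0.00297 in the authors' deposited table, 0.735 in the quasi-binomial test). Gmip encodes a GTPase-activating protein for RhoA, and its 197-base exon stood at 0.891, 0.771 and 0.927 in set 1 and at 0.972, 0.983 and 1.0 in set 2; without library 2 of set 1 the difference of -0.122 was -0.076. Zfp977 and Zfp653, zinc finger genes, had coding exons at 0.785 and 0.864 in set 1, against 0.922 and 0.978 in set 2, and their loss meets no premature stop. Zfp977 and Gm14418 belong to a gene family with close copies, so reads may have been split among them.

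The other exons lower in set 1 lay in mixed places. Nol12, which encodes a nucleolar RNA-binding protein, had a 91-base exon at 0.272, 0.187 and 0.111 in set 1 and at 0.367, 0.428 and 0.49 in set 2. Usf3, a transcription factor gene, had a 118-base 5′ UTR exon at 0.752, 0.589 and 0.763 in set 1 and at 0.947, 0.898 and 0.925 in set 2. Use1, which encodes a SNARE of transport to the endoplasmic reticulum, had a 196-base exon at 0.702 ± 0.042 in set 1 and 0.866 ± 0.066 in set 2 (SD, n = 3 each), an exon annotated only in a retained-intron transcript. Ppip5k2, an inositol pyrophosphate kinase gene, stood at 0.695 in set 1 and 0.852 in set 2, Dpp7, a lysosomal peptidase gene, at 0.841 and 0.96, and Sfi1, a centrosome gene, at 0.821 and 0.972, all through junctions that remove 2 or more coding exons. A 55-base exon of Gm14418 had skipping reads only in set 1, with a level of 0.853 in set 1 and 0 of 88 reads in set 2 (upper limit of the share 3.41%, for counting error only).

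**Figure D5:**
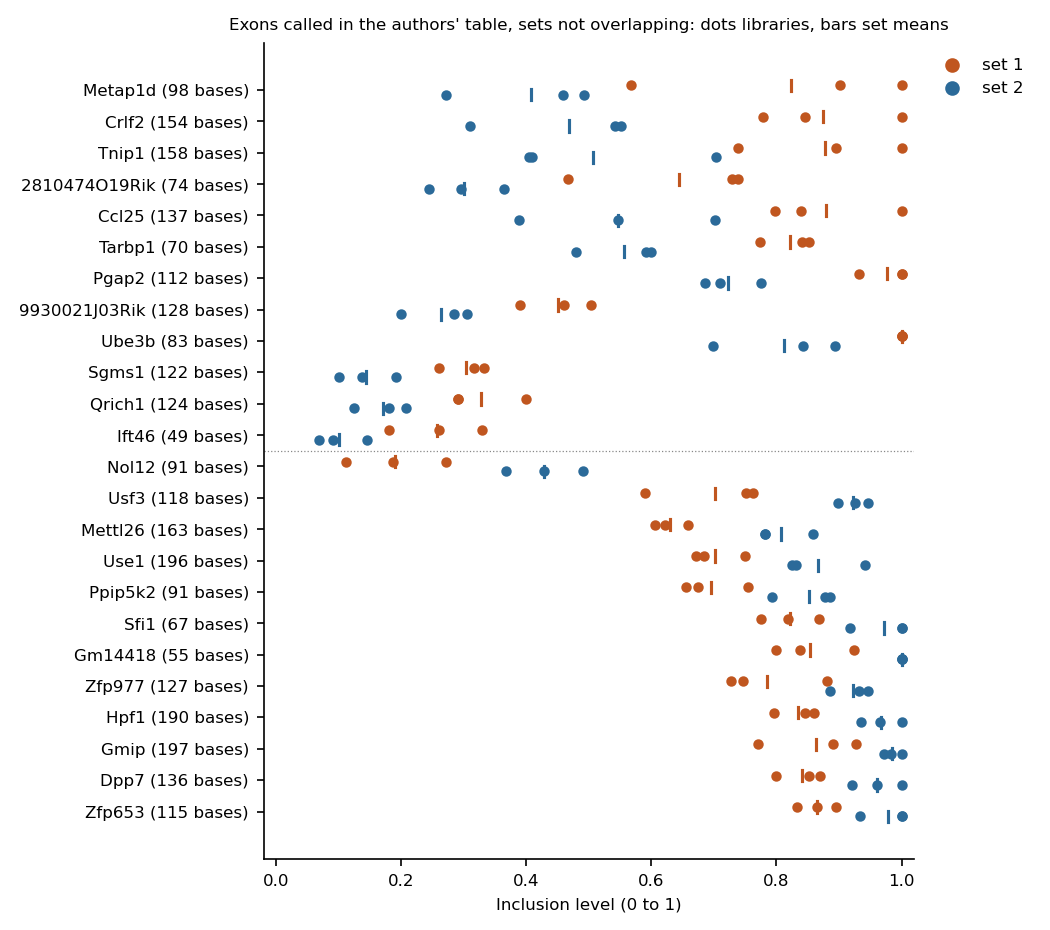
Inclusion level (horizontal axis, 0 to 1) of the 12 exons with the largest higher level (above the dotted line) and the 12 with the largest lower level in set 1 among events called in the authors' deposited table whose sets do not overlap, with 1 exon per gene, so that the 164-base exon of Metap1d is not drawn. Dots are libraries and bars means, set 1 in orange on the upper row and set 2 in blue on the lower row of each gene; the differences run from 0.415 for Metap1d to 0.156 for Ift46 above the line and from -0.238 for Nol12 to -0.113 for Zfp653 below it.

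Frame-shifting exons of the hnRNP D family were not called. The 169-base coding exon of Hnrnpdl (chr5:100037813-100037981), whose loss meets a premature stop, had 0, 0 and 2 skipping reads in set 1 and 3, 0 and 0 in set 2, at a mean level of 0.999 in both sets (quasi-binomial adjusted p = 0.971). A 107-base exon of Hnrnpd, which encodes AUF1, lies in transcripts annotated for nonsense-mediated decay and stood at 0.0233 ± 0.0027 in set 1 and 0.0297 ± 0.0059 in set 2 (SD, n = 3 each; adjusted p = 0.735). The junction total of Hnrnpdl had a log2 ratio of -0.22 ± 0.09 (SE, on the log2(CPM + 1) scale), which did not pass limma (adjusted p = 0.392). Labels give no deleted exon, so these reads are no check of the knockout.

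Genes of splicing factors were read list by list, and each count of called events stands against 69 of all 16122 events (0.428%). Of 59 tested events in 23 hnRNP genes, 10 were intermediate and 0 were called in the authors' deposited table; the median absolute difference between sets was 0.00242, against 0.00639 over all 16122. The 83-base 5′ UTR exon of Raly stood at 0.51 ± 0.034 in set 1 and 0.503 ± 0.015 in set 2, and the 74-base coding exon of Hnrnpul2 at 0.887 ± 0.010 and 0.885 ± 0.031 (SD, n = 3 each). Syncrip and Hnrnpr, paralogues that encode hnRNP Q and hnRNP R, had exons with the start or end of the coding sequence at 0.893 and 0.535 in set 1, against 0.888 and 0.567 in set 2. SR protein genes, whose poison exons are well known, had 15 tested events, of which 0 were intermediate or called. The 268-base inserted exon of Srsf6 stood at 0.0246 in set 1 and 0.0306 in set 2, and the 2 inserted exons of Srsf11 at 0.0095 and 0.0217 in set 1, against 0.0099 and 0.0152 in set 2.

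The nuclear speckle and splicing kinase list had the largest count of intermediate events, 25 of 115 tested, against 1456 of all 16122 (9.03%), with a median absolute difference of 0.00605. Rnps1, an exon junction complex gene, stood at 0.685 in set 1 and 0.678 in set 2, Srrm2 at 0.824 and 0.825, Rbm25 at 0.127 and 0.124, and Thrap3 at 0.299 and 0.24. Both called events of the list were in Acin1, which encodes another exon junction complex protein, and came from 1 junction with 4, 0 and 8 reads in set 1 and 0 in set 2; the level of its 104-base exon was 0.867, 1.0 and 0.78 in set 1 and 1.0 in each library of set 2, so library 2 of set 1 equalled set 2. Without library 3 of set 1 the difference of -0.118 was -0.067. Of 59 core spliceosome events, 7 were intermediate and 2 were called, in U2af1 and Slu7. The 79-base 5′ UTR exon of Slu7, which encodes a second-step factor, stood at 0.415, 0.437 and 0.402 in set 1 and at 0.372, 0.234 and 0.201 in set 2 (adjusted p = 0.0398 in the authors' deposited table, 0.735 in the quasi-binomial test). The 205-base exon of Sf1, which encodes the branch point binding protein, stood at 0.321 and 0.299, and the 80-base exon of Snrnp70, a U1 snRNP gene, at 0.139 and 0.134. Of 61 events of neuronal and tissue splicing regulators 6 were intermediate and 0 called, among them exons of Celf1 (0.164 and 0.142) and Mbnl2 (0.863 and 0.868).

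In the DNA damage response list 16 of 187 tested events were intermediate and 3 were called, against 0.428% of all events (median absolute difference 0.00866), both Hpf1 events above, which share 1 junction, and a 112-base coding exon of Polq, which encodes DNA polymerase theta. The Polq exon stood at 0.979, 0.958 and 0.932 in set 1 and at 0.826, 0.898 and 0.817 in set 2; its mean coverage was 67.2 reads per library. Mdm2, the gene of the p53 ubiquitin ligase, had a 131-base 5′ UTR exon at 0.792 in set 1 and 0.719 in set 2, and Rev3l, of DNA polymerase zeta, a 238-base coding exon at 0.779 and 0.851; neither was called. The endocytosis list had 15 intermediate events of 153 and 1 called, a 37-base exon of Dnm1, which encodes dynamin, with 8, 3 and 3 inclusion reads in set 1 and 0, 0 and 1 in set 2 (levels of 0.132 and 0.00901). Stx16, a Golgi SNARE gene, had a 166-base coding exon at 0.806 in set 1 and 0.737 in set 2.

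The other lists held 0 called events with a mean of 20 or more reads and a change of 0.10 or more. Intermediate events numbered 7 of 135 for RNA decay, 7 of 117 for the cytoskeleton, 16 of 172 for chromatin regulators and 6 of 123 for the cell cycle. In the chromatin list, a 97-base exon of Setd5, a noncoding-transcript exon, stood at 0.161, 0.133 and 0.132 in set 1 and at 0.24, 0.245 and 0.221 in set 2, with an adjusted p of 0.0365 in the authors' deposited table but a change of -0.093, and a 5′ UTR exon of Phf21a at 0.83 and 0.691 without passing (0.0696). In the cytoskeleton list, the 79-base exon of Tpm3, a tropomyosin gene, stood at 0.106 in both sets, and the 37-base exon of Add1, of the membrane skeleton protein adducin, at 0.752 and 0.817. In the cell cycle list, besides Cenpa and Ccnl1, a 134-base coding exon of Cdc25b, a phosphatase gene of mitotic entry, stood at 0.87 and 0.902, and a 77-base exon of Anapc1 at 0.897 and 0.887. The neuroblastoma marker list had 11 tested events in 6 genes, all at levels of 0.965 or more.

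Junction totals of the host genes were compared to see whether reads moved with exon inclusion. Of 6439 genes with a tested frame-shifting exon, 63 passed limma on log2(CPM + 1) at an adjusted p under 0.05, of which 35 had the higher and 28 the lower total in set 1, against 88 of all 8285 genes (1.06%). Without library 1 of set 1 the count was 206, and without each other library in turn it was 23 to 54. Of the 63 genes with a called exon, 2 passed, Popdc2 and Greb1. The median absolute log2 ratio was 0.18 in the genes with a called exon and 0.13 in all genes. In bulk RNA, fewer cells of a type and less RNA per cell cannot be told apart.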

How the data were processed

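RNA-seq of 6 N2a libraries (3 knockout, 3 wild type) was used as 1 deposited table of splicing events in the layout of rMATS, with junction counts per library, per the file headers. The submitters' processing notes name Bowtie2 2.2.3, HISAT2 2.1.0, HTSeq 0.6.0 and build mm10, with no role; the splicing caller's version is not given in the sources used here. The authors deposited inclusion and skipping read counts, inclusion levels as a fraction, form lengths, p-values with adjusted p-values, and an inclusion difference, a score of set 1 minus set 2. The table links neither set to a genotype, and 0 columns of per-library values were left unused. Levels recomputed from the counts lay within 0.0005 of the deposited values.

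Exons were placed with GENCODE vM21, in which 18586 of 18612 were annotated. A call needed an adjusted p under 0.05 and a change of 0.10 or more. The moderated quasi-binomial test (limma 3.58.1 in R 4.3.3) took its dispersion prior from events with 30 or more reads of the rarer form, a dispersion of at least 1, and Benjamini-Hochberg adjustment over 39419 events. A prior from 5 or more reads was run first and called 6 frame-shifting events, and the main form was settled after that was seen. Values per library were compared by exact permutation tests (Python 3.11.15, scipy 1.17.1), and gene totals by limma on log2(CPM + 1) of junction reads. The quasi-binomial test was also run on simulated data, with changes set only in skipped-exon events of intermediate level and the spread taken from its own fit. The simulation therefore does not show how well the test finds changes in exons that are nearly always included. Named exons were the 12 largest called rises and 12 largest called falls with sets apart (1 event per gene), those with the smallest p, and up to 4 intermediate exons with the most reads from each list plus its called exons, and those of Hnrnpdl and Hnrnpd; inserted exons with the most reads or in SR protein genes were added after their values were seen. The members and gene lists were chosen with earlier results of these data known. Intervals and floors (3 counts) cover counting error only.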

Additional observations from a re-analysis of the deposited data

How the results depend on the processing

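The quasi-binomial test called 0 frame-shifting events, also with a minimum mean count of 10, with none, and with no minimum change or one of 0.20. A dispersion prior from events with 5 or more reads of the rarer form gave 6 (11 with no minimum change), and limma on logit levels with no minimum change gave 2. The 5-read prior was run first, and the main form was settled after its calls were seen. Its count with no minimum change and that of limma were added after the data were seen. Leaving out each library in turn gave 0 to 2 calls, with 2 only without library 3 of set 1. The 113 calls of the authors' deposited table became 60 at an adjusted p under 0.01, 52 at a change of 0.20, 69 with a mean count of 20 or more and 76 with 1 event per exon. The 113 called events were of 113 distinct exons. The count with 1 event per exon was therefore lower because the event kept for an exon was not always the called one. The set difference in the median level was 0.000801 to 0.00182 with a library left out, and that in the intermediate share -0.862 to -0.443 percentage points; this share difference was -0.376 (exact permutation p = 0.3) with a minimum mean count of 50 and -1.25 with a range of 0.05 to 0.95. The intermediate share of frame-shifting minus frame-keeping exons was -4.65 to -4.58 percentage points with a library left out, where 5 libraries cannot reach p under 0.0625, and -4.94 with a range of 0.05 to 0.95. The median difference between these kinds of exon was 0.0015 to 0.00217. The 63 host gene totals became 23 to 206 with a library left out. Of 34 named exons, 4 fell to under 2/3 of their main difference with a library left out (Gmip, Plekhj1 and both of Acin1). Over the 34, the lowest ratio to the main difference was 0.564 and the highest 1.5. Most of the 34 were chosen for sets that do not overlap, which fixes their sign. The cause of these changes was not tested. The edgeR test and TMM scaling were not run; median-ratio scaling gave 62 totals. No paired analysis was possible because the columns carry no replicate number of the labels. Depth is a limit for called events, which had a median of 56.3 reads per library, against 153.2 over all.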
